A study of Mus musculus and Homo sapiens
Mus musculus with 14 samples.

Results

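Somatostatin (Sst) and its 5 receptors (Sstr1 to Sstr5) were followed in mouse retina in which cDNA was made inside fixed sections and barcoded by light in chosen cells or layers. The family was defined by gene symbol, as 6 of the 25357 genes listed in either retina table, and it was picked with its values in both experiments already known. Each member's values are therefore given as a description, with no test of a difference between groups. The amacrine table held 5 of the 6 members among 18415 genes and had no row for Sstr5, and the layer table held 5 of the 6 among 24460 genes and had no row for Sstr1. A member without a row was counted as not detected.

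All retinal libraries came from wild-type (WT) CD1 IGS mice in the third postnatal week, with no transgene and no treatment. In the amacrine experiment, 5 sections each gave 2 libraries, one from the few cells that stained for tyrosine hydroxylase (TH+) and one from neighbouring amacrine cells that did not (TH−). In the layer experiment, 4 sections of the same animal each gave 3 libraries, from the outer nuclear layer of photoreceptors (ONL), the bipolar cell layer (BCL) and the ganglion cell layer (GCL). The study calls the sections technical replicates, so the spread between them is not a spread between animals. Its methods speak of a single source animal for the Light-Seq experiments, without a separate statement for the amacrine sections. Each library is a small bulk sample, in which fewer cells with a transcript and less transcript per cell cannot be told apart. A library here is the set of reads with 1 barcode. Libraries of 1 section share a section number and were barcoded in the same tissue. Their cDNA was extracted, amplified and sequenced together and then split by barcode sequence, so they are not separate preparations. In the paper's mixed cultures a small part of the reads carried the barcode of the other cells. How large that part was in the retina is not known from these counts.

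Somatostatin is a small peptide hormone and transmitter that is cut from a longer prohormone and released by neurons. In the rodent retina it is known from a sparse population of wide-field, amacrine-like cells many of whose bodies lie in the ganglion cell layer. Its receptors are G-protein-coupled and act through Gi and Go proteins to lower cyclic AMP, open inwardly rectifying potassium channels and close voltage-gated calcium channels. Sstr2 is known from several retinal neuron types, dopaminergic amacrine cells among them.

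The end of the Sst coding sequence is shown because it spells the active peptides that the counted RNA encodes. On GRCm39 (GENCODE vM39, transcript Sst-201, minus strand) it lies at chr16:23708482-23708565, inside the last coding exon and just before the stop codon. Capitals mark the 42 bases that encode the 14-residue peptide SST-14, and the lower-case bases before them complete the 28-residue peptide SST-28 of the 116-residue prohormone.
Sst, codons of SST-28: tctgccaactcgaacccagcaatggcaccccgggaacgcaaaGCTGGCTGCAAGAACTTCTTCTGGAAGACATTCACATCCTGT

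The study had itself placed Sstr2 among the top markers of TH+ cells from these counts. For that reason it designed 54 oligonucleotide probes for fluorescence in situ hybridization (FISH) against Sstr2. That probe set could not be extended during synthesis and was not applied to tissue, so there is no image of Sstr2 beside the counts. All 54 probes matched the antisense of the longer Sstr2 transcript (ENSMUST00000146390.4) exactly, over 30 to 37 bases each. Of these, 30 lay in the coding region, 7 in the 5′ untranslated region, 15 in the 3′ untranslated region and 2 across an end of the coding region. That transcript encodes a receptor of 369 residues, and a spliced transcript (ENSMUST00000106630.3) encodes one of 346 residues with another carboxyl tail. The 3 probes printed here are shown because they cover the shared part of the receptor and the bases that encode each tail. The bases of the shorter form's tail also lie in the 3′ untranslated region of the longer transcript, so its probe matches both. Capitals mark the bases complementary to the RNA, and lower case marks the linker and the primer that every probe of the set carries.
Sstr2.25_37, shared coding part, chr11:113515111-113515140: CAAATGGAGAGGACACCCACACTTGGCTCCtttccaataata
Sstr2.25_6, tail of the longer form, chr11:113516078-113516107: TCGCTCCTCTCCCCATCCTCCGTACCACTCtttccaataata
Sstr2.25_22, tail of the shorter form, chr11:113516433-113516462: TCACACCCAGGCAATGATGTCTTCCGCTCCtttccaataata
The probes are antisense to the plus strand on which Sstr2 lies. Of the 30 coding probes, 26 matched the coding part of both transcripts and 4 matched the longer form alone. Further probes across and just beyond the end of the coding region also matched the longer form alone. The deposited counts are summed over all exons of the gene, so the receptor forms were not separated in them.

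**Figure D1:**
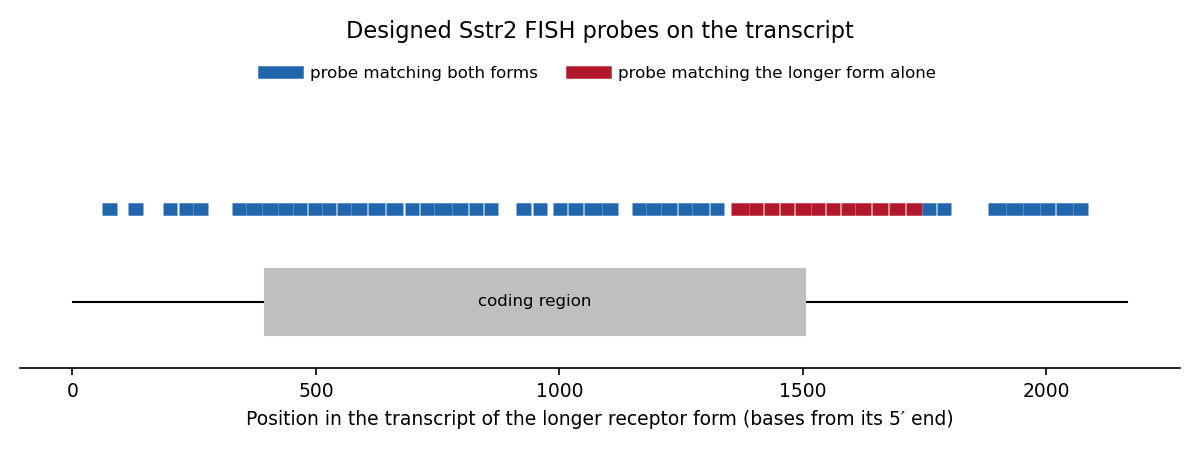
Positions of the 54 Sstr2 probes (blocks) along the transcript of the longer receptor form, in bases from its 5′ end, with the coding region in grey. Red blocks match the longer form alone and sit around the end of the coding region, where the receptor tails differ.

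The 6 genes lie on 6 different chromosomes of GRCm39, and all are annotated as protein-coding. Sst (ENSMUSG00000004366.5) is on chromosome 16 from 23707321 to 23711733. Sstr1 (ENSMUSG00000035431.5) is on chromosome 12 from 58258494 to 58262824, and Sstr2 (ENSMUSG00000047904.7) on chromosome 11 from 113510145 to 113516862. Sstr3 (ENSMUSG00000044933.4) is on chromosome 15 from 78421208 to 78428886, Sstr4 (ENSMUSG00000037014.5) on chromosome 2 from 148236836 to 148243025, and Sstr5 (ENSMUSG00000050824.13) on chromosome 17 from 25708847 to 25733577. The exons used for the deposited counts were shorter than those of the later annotation. For Sst they spanned 721 bases against 3628, for Sstr1 2046 against 3967, and for Sstr4 1424 against 6045. For Sstr2 the lengths were close, at 2143 and 2174 bases. For Sstr3 they were 4320 and 6530 bases, and for Sstr5 2733 and 4842. Reads in exons added later were not counted, and how many there were is not known from these files.

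Each cDNA carried a unique molecular identifier (UMI), so that PCR copies count once, and levels are given as UMIs scaled to a library total of 1000000 (CPM). TH+ libraries held 30317 to 87449 UMIs and TH− libraries 134394 to 200344. Layer libraries held 193869 to 801105. A count of 0 allows up to 3 UMIs as a one-sided limit, which is 11.7 CPM over the 5 TH+ libraries together, 3.74 CPM over the TH− libraries, 1.32 CPM over the ONL, 3.74 CPM over the BCL and 1.12 CPM over the GCL. These limits and the Poisson intervals below cover counting error only. The staining gate was seen in the RNA as well: Th had 14 to 37 UMIs in each TH+ library and 2 to 10 in each TH− library. Slc6a3, the dopamine transporter, had 1 UMI in all, and the dopaminergic list of 4 genes (Th, Slc18a2, Ddc, Slc6a3) made up 0.0853% ± 0.0231 (SD, n = 5) of TH+ UMIs and 0.00439% ± 0.00285 (SD, n = 5) of TH− UMIs.

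Sstr2 was the member with the most UMIs in the TH+ cells. The TH+ libraries of sections 1 to 5 held 9, 19, 13, 5 and 5 UMIs of Sstr2, which is 184, 217, 306, 108 and 165 CPM. The TH− libraries of the same sections, which were deeper, held 4, 3, 0, 2 and 1 UMIs, which is 26.3, 17.4, 0, 9.98 and 7.05 CPM. Every TH+ library was above every TH− library. Among the 6021 genes tested in this comparison, 0.93% had TH+ libraries that all lay above the TH− libraries. Mean Sstr2 was 196.0 ± 73.1 CPM in TH+ and 12.1 ± 10.1 CPM in TH− libraries (SD, n = 5 each). Summed over sections, the 51 UMIs of the TH+ libraries gave 199.6 CPM with an exact 95% Poisson interval of 148.6 to 262.5, and the 10 UMIs of the TH− libraries gave 12.5 CPM with an interval of 5.98 to 22.9. In section 4 the exact intervals of the TH+ and TH− libraries met, at 35.1 to 252 and 1.21 to 36.1 CPM, and in the other sections they were apart.

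Sstr2 was the only member to pass the low-count filter of the count model in the amacrine table. Its fitted log2 difference, TH+ minus TH−, was 3.87 ± 0.44 (SE). That value ranked 5 among the 6021 genes tested, and 0.747% of those genes were called higher in TH+ at an adjusted p under 0.05 (edgeR quasi-likelihood test, Benjamini-Hochberg). Because Sstr2 was chosen on this contrast, its place among the genes tested is a description. By section, the difference of log2 CPM (prior count of 2) was 2.18, 2.72, 4.09, 2.14 and 2.76, with an SD of 0.79. Section 3 stood highest, and there the TH− library held no Sstr2 UMI.

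**Figure D2:**
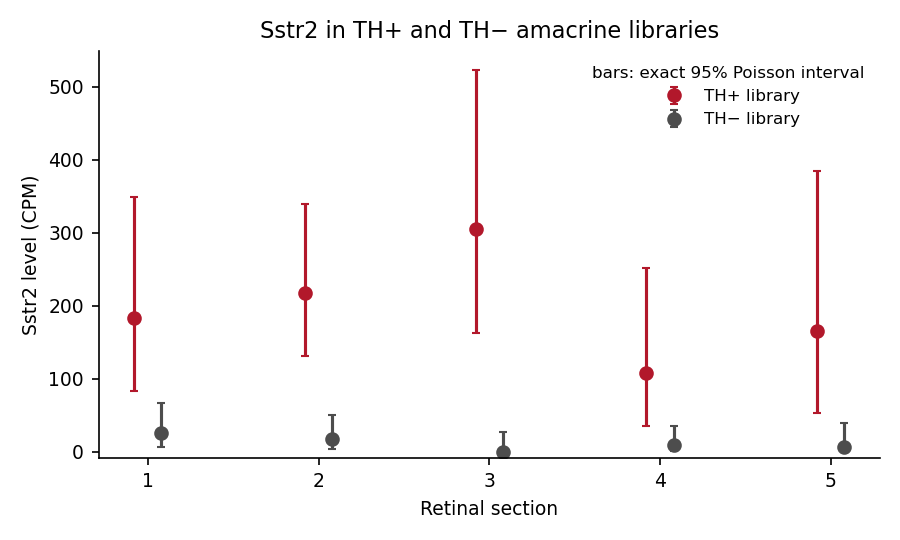
Sstr2 level (CPM, linear axis from 0) in the TH+ and TH− library of each of the 5 sections, with exact 95% Poisson intervals as bars. All TH+ points lie at 108 CPM or above and all TH− points at 26.3 CPM or below.

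Sstr2 UMIs in the TH− libraries came with a few UMIs of dopaminergic genes. The TH− libraries of sections 1 to 5 held 3, 2, 2, 10 and 2 UMIs of Th, the rate-limiting enzyme of dopamine synthesis. Slc18a2, the vesicular monoamine transporter, had 0, 10, 1, 6 and 2 UMIs in the same libraries. Ddc, which makes dopamine from L-DOPA, had no UMI in any TH− library and 12 over the TH+ libraries. The TH− library with the most Sstr2 UMIs (section 1) was not the one with the most Th UMIs (section 4) or Slc18a2 UMIs (section 2). Summed over sections, Sstr2 had 0.44 UMIs per Th UMI in TH+ and 0.53 in TH− libraries. Per Slc18a2 UMI it had 0.65 in TH+ and 0.53 in TH− libraries. Whether the TH− counts came from dopaminergic cells or from others was not tested.

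Other cell types also moved between the amacrine libraries. The 8 rod genes took 3.06% ± 0.963 of UMIs in TH+ and 1.76% ± 0.563 in TH− libraries (SD, n = 5 each), were higher in TH+ in all 5 sections, and all 8 were detected in both. The 7 amacrine genes took 0.319% ± 0.0559 and 0.398% ± 0.0766, lower in TH+ in all 5 sections. The 9 bipolar genes took 0.113% ± 0.033 and 0.164% ± 0.0793, lower in TH+ in 4 of 5 sections. The 6 Müller glia genes took 0.367% ± 0.0595 in TH+ and 0.542% ± 0.10 in TH− libraries, and were lower in TH+ in all 5 sections. The bipolar share was highest in the TH− library of section 3, at 0.265%, which held no Sstr2 UMI. In the ONL libraries, where the rod share was 6.01% to 7.39%, Sstr2 had 3 UMIs in all. The part of these cells in the Sstr2 values was not tested.

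The other receptors gave few UMIs in the amacrine libraries. Sstr1, a receptor known in the retina as an autoreceptor of somatostatin cells, had 0, 1, 2, 0 and 1 UMIs in the TH+ libraries of sections 1 to 5 and a single UMI in the TH− library of section 5. The 4 TH+ UMIs gave 15.7 CPM (4.27 to 40.1) and the TH− UMI 1.25 CPM (0.0316 to 6.95), so the intervals overlap. Sstr3, a receptor found on neuronal cilia in the brain, had 1 UMI in TH+ section 1 and 1 in TH− section 5. Sstr4 had no UMI in TH+ libraries and 1 each in the TH− libraries of sections 1 and 3. At this depth no difference between TH+ and TH− cells was detectable for Sstr3, Sstr4 or Sstr5.

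For Sst itself, no difference between TH+ and TH− cells was detectable at this depth. The TH+ libraries held 2, 0, 0, 1 and 0 UMIs, and the TH− libraries held 0, 0, 0, 0 and 5. The means were 12.5 ± 18.4 CPM and 7.05 ± 15.8 CPM (SD, n = 5 each), and the libraries overlapped. Summed levels were 11.7 CPM (2.42 to 34.3) in TH+ and 6.24 CPM (2.03 to 14.6) in TH− libraries. All 5 UMIs of the TH− group came from section 5, and without it the TH− mean was 0 CPM. The TH− library of section 5 had the highest share of amacrine genes of the TH− group, at 0.517%. Without section 1, which held 2 of the 3 TH+ UMIs, the TH+ mean was 5.41 CPM.

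**Figure D3:**
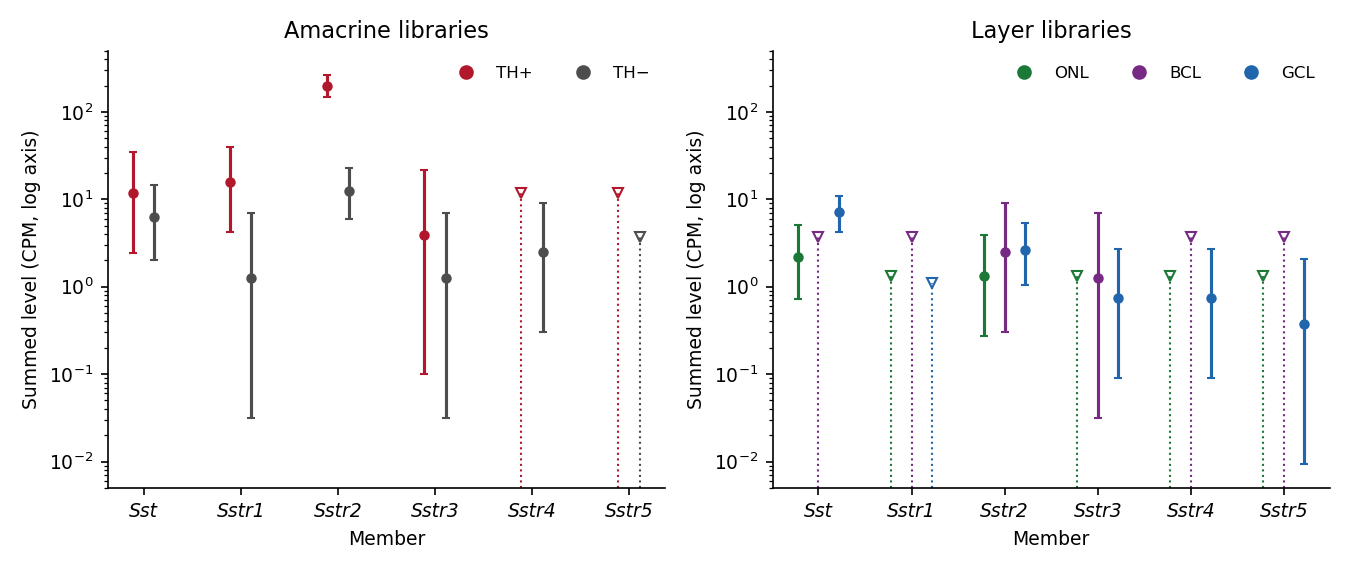
Summed level of each member (CPM, log axis) in the TH+ and TH− libraries (left) and in the 3 layers (right), with exact 95% Poisson intervals. Open triangles with dotted lines mark members at 0 UMIs and show the level that 3 UMIs would give. Sstr2 in TH+ cells, at 199.6 CPM, is the highest value, and no other member passes 15.7 CPM in any group.

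Compared per length, Sstr2 was also the highest receptor in the TH+ cells. CPM divided by exon length in kilobases (RPKM) averaged 91.5 ± 34.1 for Sstr2, 8.94 ± 10.2 for Sstr1 and 0.945 ± 2.11 for Sstr3 in TH+ libraries (SD, n = 5). The lowest TH+ library for Sstr2, at 50.5 RPKM, was above the highest for Sstr1, at 23.0 RPKM. That highest value was in section 3, and without it the Sstr1 mean fell from 18.3 to 11.1 CPM. Sst averaged 17.3 ± 25.5 RPKM, which Sstr1 overlapped, and its highest library, at 56.6 RPKM, reached above the lowest for Sstr2. Sstr2 made up 91.6% of the summed receptor RPKM in TH+ cells and 68.7% in TH− cells. In UMIs it took 51 of 56 receptor UMIs in TH+ (91.1%, exact 95% interval 80.4% to 97.0%) and 10 of 14 in TH− (71.4%, 41.9% to 91.6%). The order of the remaining receptors could not be told from so few UMIs.

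In the layers, Sst was the member with the most UMIs, and most of them lay in the ganglion cell layer. That layer also held the most UMIs of all genes, at 2688564, beside 2272285 in the ONL and 801374 in the BCL. The amacrine cell bodies between the BCL and the GCL were not among the barcoded layers. The GCL libraries of sections 1 to 4 held 1, 11, 6 and 1 UMIs, which is 1.27, 16.5, 9.22 and 1.71 CPM. The BCL libraries held none, and the ONL libraries held 3, 1, 1 and 0 UMIs, which is 3.74, 1.38, 2.28 and 0 CPM. Of the 4 GCL libraries, 2 were below the highest ONL library. The BCL libraries were shallower, and a count of 0 in one of them allows 14.4 to 15.5 CPM, above 3 of the 4 GCL values, so no order of single GCL and BCL libraries can be read.

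Mean Sst was 7.17 ± 7.20 CPM in the GCL and 1.85 ± 1.57 CPM in the ONL (SD, n = 4 each). The 19 summed UMIs gave the GCL 7.07 CPM with an exact 95% interval of 4.25 to 11.0, the 5 UMIs of the ONL gave 2.20 CPM (0.714 to 5.14), and the exact interval of the BCL, at 0 UMIs, reached 4.60 CPM. That end is above the one-sided limit of 3.74 CPM because the interval is two-sided, as are those it is set beside. The interval of the GCL overlaps those of both other layers. Without section 1 the ONL mean was 1.22 CPM. Sections 2 and 3 held 17 of the 19 GCL UMIs, and the GCL mean without section 2 was 4.07 CPM. The intervals of GCL sections 1 and 2 were apart, at 0.0323 to 7.10 and 8.23 to 29.5 CPM. The 7 amacrine genes took 0.133%, 0.150%, 0.140% and 0.142% of GCL UMIs in sections 1 to 4. The 8 ganglion genes took 0.502%, 0.512%, 0.472% and 0.528%. The part of these cells in the Sst values was not tested.

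Sst did not pass the low-count filter of the layer fit (3 UMIs scaled to library size in enough libraries, and 10 in total), and neither did any receptor. With no filter, the fitted log2 differences of Sst were -4.83 ± 1.54 (SE) for BCL minus GCL and -1.51 ± 0.69 for ONL minus GCL. The first rests on a group at 0 and is no bound on the fold.

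Sstr2 was low in all 3 layers. The GCL libraries of sections 1 to 4 held 2, 3, 2 and 0 UMIs, which is 2.55, 4.50, 3.07 and 0 CPM. In the BCL the 2 UMIs both came from section 3, and in the ONL the 3 UMIs all came from section 1. The groups overlapped, with means of 2.53 ± 1.88 CPM in the GCL, 2.54 ± 5.08 in the BCL and 0.936 ± 1.87 in the ONL (SD, n = 4 each). Summed levels were 2.60 CPM (1.05 to 5.36), 2.50 CPM (0.302 to 9.02) and 1.32 CPM (0.272 to 3.86) in the same order, so no difference between layers was detectable at this depth.

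The ONL library of section 1, which held all Sstr2 UMIs of that layer and 3 of its 5 Sst UMIs, also held more Thy1, Gad1 and summed amacrine RNA than the other ONL libraries. Thy1, a surface protein of ganglion cells, was at 114 CPM there and at 27.7, 54.8 and 96.7 CPM in ONL sections 2 to 4. Gad1, the GABA-synthesizing enzyme of amacrine cells, was at 121 CPM there and at 44.3, 45.7 and 106 CPM in the others. The 7 amacrine genes together took 0.0434% of its UMIs and 0.0235% to 0.038% in the other ONL libraries, and it was also the deepest library. The bipolar and Müller glia lists were instead highest in ONL section 4, at 0.127% and 0.117% against 0.118% and 0.111% in section 1. In the other 3 ONL libraries Sstr2 was at 0. The part of RNA from other layers in these UMIs was not tested.

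**Figure D4:**
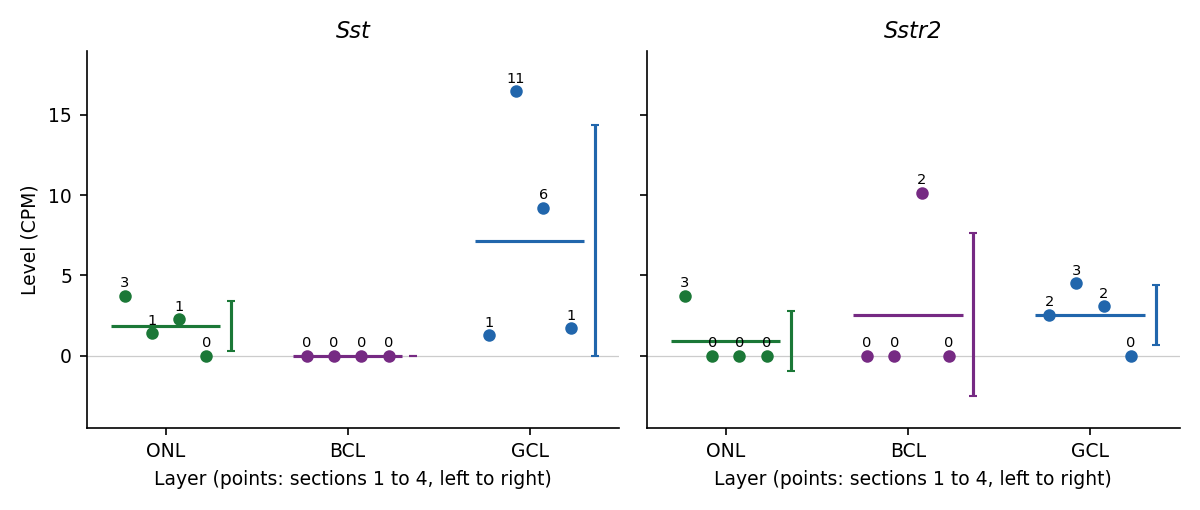
Sst (left) and Sstr2 (right) in the 12 layer libraries, in CPM, with sections 1 to 4 from left to right in each layer. Numbers are UMIs, horizontal lines are means and bars are SD (n = 4). Sst is highest in GCL sections 2 and 3, and Sstr2 overlaps between all layers.

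The remaining receptors were at the edge of detection in the layers. Sstr3 had 2 UMIs in GCL section 2 and 1 in BCL section 2, Sstr4 had 2 in GCL section 4, and Sstr5 had 1 in GCL section 1. Receptor UMIs summed to 12 in the GCL, 3 in the BCL and 3 in the ONL, which is 4.46 CPM (2.31 to 7.80), 3.74 CPM (0.772 to 10.9) and 1.32 CPM (0.272 to 3.86). In the GCL, Sstr2 took 7 of the 12 receptor UMIs (58.3%, 27.7% to 84.8%) and 59.4% of the receptor RPKM. Per length, GCL means were 9.95 ± 9.99 RPKM for Sst, 1.18 ± 0.876 for Sstr2, 0.60 ± 1.20 for Sstr4, 0.173 ± 0.347 for Sstr3 and 0.117 ± 0.233 for Sstr5 (SD, n = 4). Neighbours in this order overlapped in their libraries. The amacrine and layer libraries were sequenced separately, so their levels are only set side by side.

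The family had few UMIs in the cultured cells of the same series. None of the 6 members had a UMI in mouse 3T3 fibroblasts, over 540880 UMIs from 3 wells, which allows up to 5.55 CPM each. In human HEK kidney cells, labelled HEK293T and called HEK293 in the methods, SSTR2 had 3 UMIs in well 2 (29.3 CPM) and again 3 when the library of that well was sequenced deeper (21.6 CPM). It had none in wells 1 and 3. The other human members had none in any well, which allows up to 12.6 CPM each over the 238708 UMIs of the 3 wells.

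The genes whose levels across the 10 amacrine libraries were most like those of Sstr2 were Vat1, Cartpt, Ppp1r10, Th and Tspyl2. Their Pearson correlations of log2 CPM with Sstr2 were 0.96, 0.95, 0.95, 0.95 and 0.94, the highest of 6020 genes ranked. These points share the TH+ and TH− split and come in pairs from 5 sections, so the values describe these libraries. Cartpt, the precursor of the CART peptides, had a median of 2021 CPM (1492 to 3247) in TH+ and 134 CPM (112 to 185) in TH− libraries. Th had a median of 469.6 CPM (303 to 660) and 14.9 CPM (11.6 to 49.9). For each of the 5 genes the TH+ libraries were all above the TH− libraries. Vat1, a membrane protein first described in synaptic vesicles, was at 114 CPM (64.9 to 235) and 28.9 CPM (22.3 to 52.6). Ppp1r10, a nuclear regulator of protein phosphatase 1, was at 198 CPM (151 to 240) and 122 CPM (99.8 to 138), and Tspyl2, a nuclear protein, at 160.1 CPM (141 to 165) and 59.2 CPM (52.1 to 75.2). No layer library set could be ranked in this way, since neither Sst nor Sstr2 passed the filter there.

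A list of 57 other genes of the pathway was examined next, from the second ligand and the prohormone enzymes to the G proteins, cyclases, channels, regulators and scaffolds that receptors of this kind use. The enzymes, G proteins, cyclases, channels, regulators and scaffolds of the list are not particular to somatostatin. Cort, which encodes cortistatin, a second ligand of the same receptors, had no row in the amacrine table and 1 UMI in each of 2 GCL libraries of the layer table. In TH+ against TH− libraries, 47 of the 57 were tested, 1 rose in TH+ and none fell, beside 0.747% of all 6021 genes called higher in TH+, 0.083% called lower and 0.83% in either direction. The median log2 difference of the 47 was 0.06, and that of all genes tested was -0.05.

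The gene that rose was Gng4, a G-protein gamma subunit. It had a median of 151 CPM (66.0 to 306) in TH+ and 44.6 CPM (26.3 to 49.3) in TH− libraries, with no overlap. Its log2 difference was 2.04 ± 0.36 (SE; adjusted p = 0.00026, edgeR quasi-likelihood test with Benjamini-Hochberg adjustment). None of the 6 tested cyclases, 8 channels, 9 desensitization genes, 7 phosphatases and scaffolds or 6 prohormone genes was called by edgeR, with adjustment over all genes at 0.05. At an unadjusted p under 0.05, 4 genes of the list, Gng4 among them, were higher in TH+ and 2 were lower, beside 533 of all 6021 genes in either direction, and DESeq2 called Gng4 alone. With section as a block, which pairs libraries of the same tissue, 148 of the 6021 genes were called in place of 50. Of the 148, 96 were higher and 52 lower in TH+. Of the list, 3 genes were called in place of 1, all higher in TH+. Gnb1, a beta subunit that rods also use, was then higher in TH+ by 0.53 ± 0.10 (log2, SE; adjusted p = 6.1e-06, edgeR), and Pcsk1n, an inhibitor of a prohormone convertase, by 0.58 ± 0.16 (adjusted p = 0.014, edgeR).

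Between the layers most of the list was called, with the ganglion cell layer the highest for the larger number. Of 55 genes tested, 43 were higher in the GCL than in the ONL and 9 were higher in the ONL, so that 94.5% were called beside 61.5% of all 11324 genes. The share of all genes higher in the GCL was 32.2% and in the ONL 29.3%. The median log2 difference, ONL minus GCL, was -2.33 for the list and 0.00 for all genes. All 8 channels were higher in the GCL, as were 6 of 8 cyclases, 9 of 15 G-protein subunits, 10 of 11 desensitization genes, 6 of 7 tested phosphatases and scaffolds and 4 of 6 prohormone genes.

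Cacna1a, the pore of P/Q-type calcium channels, had a median of 454 CPM (395 to 495) in the GCL and 41.2 CPM (29.7 to 54.9) in the ONL (log2 difference -3.21 ± 0.15, SE; adjusted p = 1.5e-25, edgeR). Gng3, a neuronal gamma subunit, was at 624 CPM (559 to 634) and 72.3 CPM (53.9 to 109). Gnao1, the Go alpha subunit, was at 1463 CPM (1434 to 1503) and 241 CPM (187 to 330), and Rgs4, which shortens Gi signals, at 268 CPM (200 to 287) and 26.0 CPM (15.2 to 35.5). Higher in the ONL were Gnb1, at 7307 CPM (6680 to 7597) against 1283 CPM (1126 to 1432), and Gnb5, the beta subunit that partners RGS proteins, at 501 CPM (477 to 552) against 128 CPM (104 to 151). Adcy6, a cyclase that Gi inhibits, was at 108 CPM (91.1 to 126) in the ONL and 34.2 CPM (22.2 to 35.7) in the GCL. Mpdz, a multi-PDZ scaffold, was at 188 CPM (174 to 238) and 47.1 CPM (39.3 to 52.5). Gnb1 and Gnb5 have known parts in photoreceptor signalling besides those in inhibitory receptor signalling.

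Of the same 55 genes, 31 were higher in the GCL than in the BCL and 6 were higher in the BCL, so that 67.3% were called beside 36.5% of all genes. By direction, 20.4% of all genes were higher in the GCL and 16.1% in the BCL. By smallest adjusted p (edgeR), Cacna1a, Rgs4, Gng4 and Cacna1b led the GCL side. Gng4, also higher in TH+ than in TH− libraries, was at 115 CPM (105 to 123) in the GCL and 9.96 CPM (4.80 to 15.5) in the BCL (log2 difference, BCL minus GCL, -3.64 ± 0.34, SE; adjusted p = 2.4e-13, edgeR). Cacna1b, the pore of N-type calcium channels, was at 210.5 CPM (184 to 239) and 48.6 CPM (30.5 to 67.1). On the BCL side, Gnai2, a Gi alpha subunit, was at 591 CPM (578 to 614) against 283 CPM (241 to 298), and Shank2, a postsynaptic scaffold, at 399 CPM (382 to 457) against 168 CPM (165 to 232). Gnb5 and Gnb1 were also higher in the BCL, by 0.78 ± 0.16 and 0.57 ± 0.12 (log2, SE).

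In the ONL against the BCL, 26 of the 55 were higher in the BCL and 9 in the ONL, so that 63.6% were called beside 36.7% of all genes. All genes split as 18.2% and 18.5% in the same order. Gnai2 was at 77.6 CPM (61.2 to 86.7) in the ONL, a log2 difference of -2.60 ± 0.14 (SE; adjusted p = 8.6e-22, edgeR) from the BCL. Gnao1 was lower in the ONL as well, with a log2 difference (ONL minus BCL) of -2.29 ± 0.13 (SE), as were Shank1, at -1.95 ± 0.14, and Shank2, at -2.23 ± 0.17. On the ONL side, Gnb1 was higher by 2.08 ± 0.12, Adcy1, a calcium-stimulated cyclase, by 1.79 ± 0.13, Gnb5 by 1.38 ± 0.13 and Adcy6 by 2.81 ± 0.29 (log2, SE). The list was written with earlier results of these data known, and the counts are read only beside the shares of all genes.

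**Figure D5:**
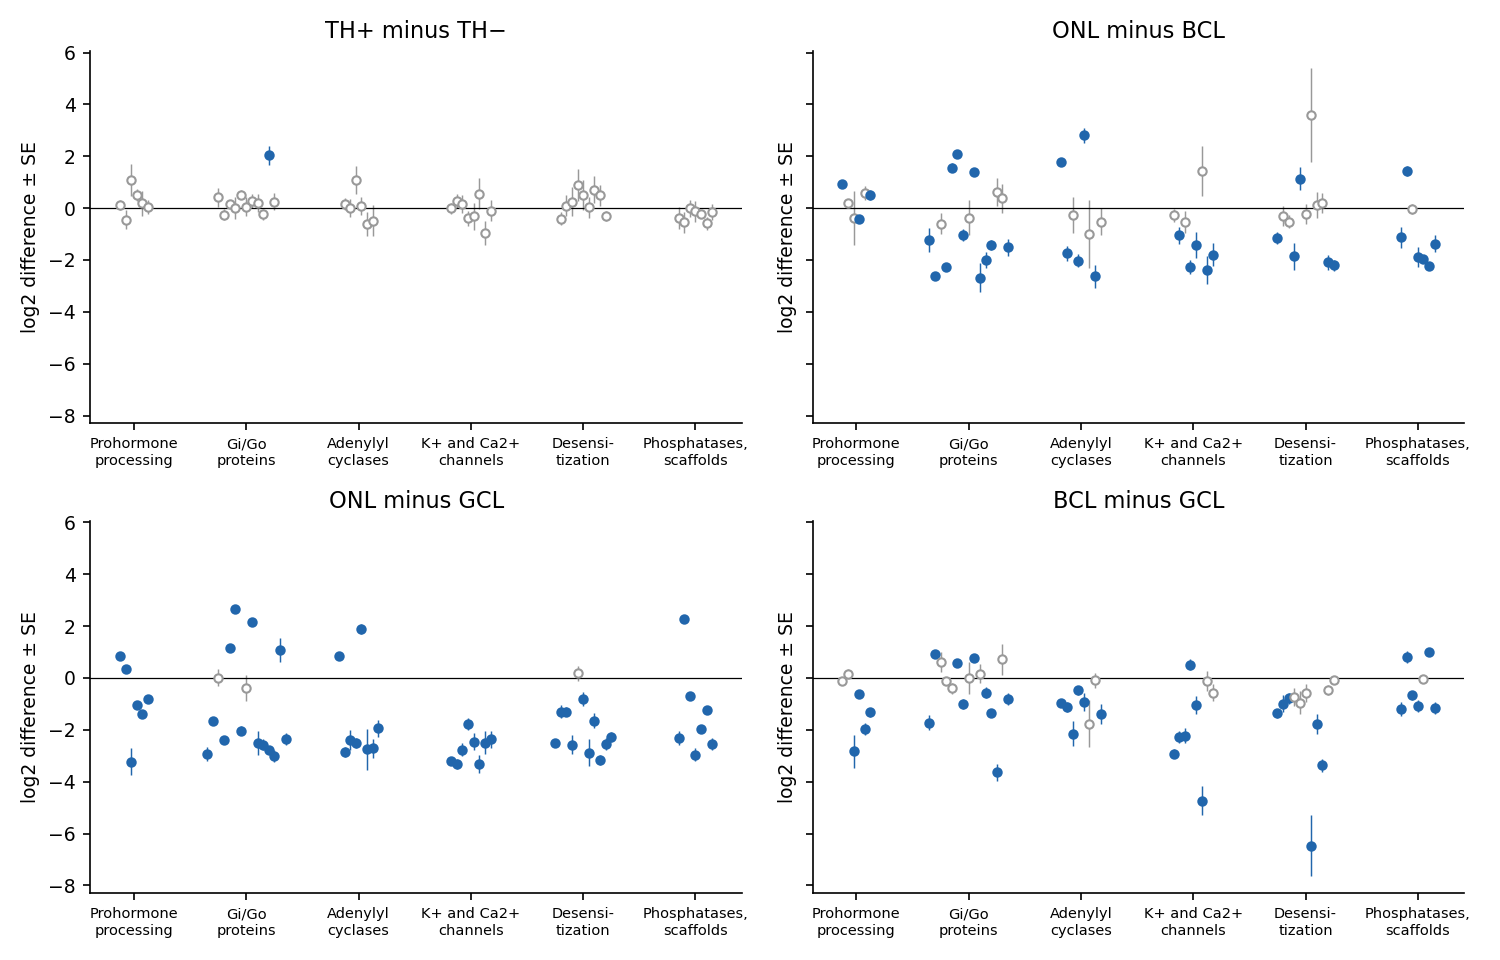
Fitted log2 difference ± SE of the tested genes of the 57-gene pathway list in the 4 comparisons, grouped by role. Filled points have an adjusted p under 0.05. A single gene, Gng4, is filled for TH+ minus TH−, while 52 of 55 are filled for ONL minus GCL, 43 of them below 0.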

How the data were processed

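cDNA was made in place with random primers and barcoded by light, in 5 sections for amacrine cells with or without TH and in 4 for the 3 layers. The deposited count is a whole number of UMIs per gene. The authors took UMIs with UMI-tools 1.1.1, mapped reads with STAR 2.7.9a to GRCm39, discarded multiply mapped reads, assigned the rest to GENCODE exons with featureCounts and removed the reads of a pair of ribosomal RNA genes. Gene length, in the mixed-culture tables, is in bases. Depth was 30317 to 801105 UMIs per retinal library.

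Here, CPM is UMIs scaled to a library total of 1000000 and RPKM divides CPM by that gene length. Differences were fitted with edgeR 4.0.16 (R 4.3.3; quasi-likelihood, TMM, filterByExpr with a minimum count of 3 and a total of 10), p-values adjusted (Benjamini-Hochberg) across the whole table, 1 fit for 10 amacrine libraries and 1 for 12 layer libraries. The SE is the log2 difference divided by the square root of F. Intervals are exact Poisson or exact binomial at 95% (scipy 1.17.1). The fit was tested on simulated data. Loci and transcripts come from GENCODE vM39 on the same assembly, matched by Ensembl identifier, and probe sequences from the study.

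The 6 members, the gene lists and the tests were chosen with earlier results of these data known. Named genes are the members, the 5 most like Sstr2, and up to 4 called pathway genes per direction with the smallest adjusted p whose libraries do not overlap. Libraries of 1 section are paired by tissue and were prepared and sequenced together. Their deviations from the group means correlated at 0.03 to 0.26 over 5 amacrine pairs and 0.01 to 0.05 over 12 layer pairs, and at -0.12 to 0.04 between different sections. Alternatives were RLE size factors, DESeq2 1.42.0, no filter, section as a block and each section left out. The pooled layer library was not analysed here. Amino acid sequences were not used here.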

Additional observations from a re-analysis of the deposited data

Results flagged for a closer look

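A library was marked when its gap to the nearest library of its group, over the range of the group, passed the 95% value of Dixon's test. Chance marks about 1 in 20 groups, and every group of these sparse counts with UMIs in a single library meets the criterion. In the amacrine sections these were Sst in TH− section 5 (35.2 CPM, 5 UMIs), Sstr1 and Sstr3 in the same library (7.05 CPM each, 1 UMI each) and Sstr3 in TH+ section 1 (20.4 CPM, 1 UMI). In the layers they were Sstr2 in ONL section 1 (3.74 CPM, 3 UMIs), Sstr2 in BCL section 3 (10.2 CPM, 2 UMIs), Sstr3 in BCL section 2 (4.80 CPM, 1 UMI), Sstr3 in GCL section 2 (3.00 CPM, 2 UMIs), Sstr4 in GCL section 4 (3.41 CPM, 2 UMIs) and Sstr5 in GCL section 1 (1.27 CPM, 1 UMI).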

How the results depend on the processing

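The Sstr2 difference of 3.87 (log2, TH+ minus TH−) kept its direction under every alternative: 3.91 with RLE size factors, 4.02 with DESeq2, 3.72 with no filter, 3.79 with section as a replicate block and 3.44 to 4.27 with each section left out. The count of pathway genes called between TH+ and TH− libraries went from 1 to 3 with the replicate block and was 1 to 2 with a section left out (2 without section 2); the cause was not tested. Calls over all genes in that comparison went from 50 to 148 with the block, and were 29 without section 3, 31 without section 5 and 73 at most. With no filter they split as 34 higher and 32 lower in TH+, against 45 and 5. The block moved no pathway count of the layers by more than 1.5 times. Pathway counts between layers stayed within 1.5 times of 35, 52 and 37 under each alternative. Added after seeing the data, the GCL mean of Sst was 7.07 CPM from summed UMIs and 4.07 to 9.14 CPM with each section left out. Without section 1 the ONL mean of Sstr2 was 0 CPM, that of Sst 1.22 CPM and the TH+ mean of Sst 5.41 CPM, and without section 5 the TH− mean of Sst was 0 CPM. Without section 3 the TH+ mean of Sstr1 was 11.1 CPM. No alternative could give a filtered layer value for a member, since none passed the filter. Depth limits the receptors, with 56 UMIs in the TH+ libraries, 14 in the TH−, 12 in the GCL and 3 each in the BCL and ONL.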
